A study of Mus musculus with 2 samples.

Results

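Interferon-responding natural killer (NK) cells were examined in single-cell RNA sequencing of NK cells from CT26_b2m-/- tumours, grown from a mouse colon carcinoma line labelled as lacking B2m, the light chain of MHC class I. The 1 library from tumours treated with IL-15SA+IL-21Fc held 12435 cell barcodes, and the 1 library from tumours treated with IL-15SA held 8386. All groups carried the tumour b2m-/- genotype and received IL-15SA, so no untreated cells were compared. Cells were sorted as CD45.2+CD3-NKp46+ and pooled within each treatment before loading on microwells. The number, strain, age and sex of the mice, the doses and the schedule could not be read from the sources used here. Values are counts of unique molecular identifiers (UMIs), which tag single captured RNA molecules.

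Barcodes were eligible as non-cycling NK cells when they held at least 1 UMI of Ncr1, under 0.15% of UMIs from 6 stromal genes and fewer than 2 UMIs of 4 cell cycle genes. Responders were the eligible barcodes with at least 3 UMIs summed over the 7 interferon-induced genes Ifit1, Ifit2, Ifit3, Mx1, Mx2, Rsad2 and Cmpk2, called the rule genes below. They numbered 250 of 6730 eligible barcodes in the IL-15SA+IL-21Fc library and 106 of 4180 in the IL-15SA library, or 356 of 20821 barcodes in all. They were set against the eligible barcodes with 0 UMIs of these genes, 5432 in the IL-15SA+IL-21Fc library and 3563 in the IL-15SA library, called sum-0 barcodes. The eligible barcodes with 1 or 2 such UMIs, 1048 with IL-15SA+IL-21Fc and 511 with IL-15SA, lie between them. Responders were thus chosen by the measured UMIs of the rule genes, whose own levels are a description. With 1 library per treatment there is no replicate check, no test was made, and every 95% interval covers counting error only.

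Type I interferons bind a receptor of Ifnar1 and Ifnar2 and act through the kinases Jak1 and Tyk2. These activate transcription factors that bind interferon-stimulated response elements (ISREs) in the promoters of interferon-stimulated genes (ISGs). Interferon gamma, which NK cells secrete, binds a receptor of its own and induces part of the same genes. In NK cells type I interferon is known to support activation and cytotoxicity.

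The rule genes lie in 3 places of the mm10 genome, by the GENCODE M21 annotation. Ifit1, Ifit2 and Ifit3, whose proteins bind viral RNA or each other, lie on chromosome 19 between 34550694 and 34650009. Mx1 and Mx2, dynamin-like antiviral GTPases, lie on chromosome 16 between 97447035 and 97560900, and the annotation lists Mx2 as a polymorphic pseudogene. Rsad2 (viperin), which makes a chain-terminating nucleotide, and Cmpk2, a mitochondrial nucleotide kinase, are neighbours on chromosome 12 on opposite strands, with Rsad2 ending at 26456452 and Cmpk2 starting at 26469204.

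The promoters of the rule genes Ifit1, Ifit3, Rsad2 and Cmpk2 and of Isg15 and Slfn5, both outside the rule, are shown to set the ISRE letters beside the values that follow. Each stretch ends at the base before the RefSeq start of the gene and is written on the gene's strand, with capitals for the ISRE core, searched as GAAA, any 2 bases and GAAA again on either strand (TTTC in place of GAAA in reverse), with overlapping matches joined. The RefSeq table of GRCm38.p6 gave these sequences, at chr19:34640724-34640888 for Ifit1 on the plus strand, chr19:34583364-34583528 for Ifit3 on the plus strand, chr12:26456453-26456617 for Rsad2 on the minus strand, chr12:26469050-26469214 for Cmpk2 on the plus strand, chr4:156200819-156200983 for Isg15 on the minus strand and chr11:82951937-82952101 for Slfn5 on the plus strand.
Ifit1: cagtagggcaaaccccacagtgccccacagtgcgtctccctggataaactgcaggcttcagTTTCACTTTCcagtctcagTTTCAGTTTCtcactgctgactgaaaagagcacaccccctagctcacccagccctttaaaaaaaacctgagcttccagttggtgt
Ifit3: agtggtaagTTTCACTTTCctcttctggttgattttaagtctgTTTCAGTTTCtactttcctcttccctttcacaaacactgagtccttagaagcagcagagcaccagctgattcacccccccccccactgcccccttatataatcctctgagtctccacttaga
Rsad2: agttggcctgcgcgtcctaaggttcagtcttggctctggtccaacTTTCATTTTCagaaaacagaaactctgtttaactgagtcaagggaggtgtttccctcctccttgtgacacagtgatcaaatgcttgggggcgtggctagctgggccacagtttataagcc
Cmpk2: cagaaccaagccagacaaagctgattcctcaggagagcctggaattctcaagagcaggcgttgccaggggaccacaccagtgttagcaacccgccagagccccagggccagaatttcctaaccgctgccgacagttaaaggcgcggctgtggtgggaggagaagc
Isg15: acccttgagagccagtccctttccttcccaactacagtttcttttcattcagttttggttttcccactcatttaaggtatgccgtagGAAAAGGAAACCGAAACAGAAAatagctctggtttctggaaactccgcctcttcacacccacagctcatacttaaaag
Slfn5: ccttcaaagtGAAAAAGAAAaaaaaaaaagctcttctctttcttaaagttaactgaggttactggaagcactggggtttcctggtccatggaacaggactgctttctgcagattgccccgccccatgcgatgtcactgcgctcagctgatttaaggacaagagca
Cores began at 104 and 85 bases before the start in Ifit1, at 156 and 122 in Ifit3, at 120 in Rsad2 and at 155 in Slfn5, and 3 overlapping cores began 78 bases before the start in Isg15. Cmpk2 held none in its whole promoter, nor did Ifit2. A match is a run of letters and not a measured binding site.

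Among all 32851 promoters of the table, which run from 250 bases before to 50 after a start, 3.44% held the core. Among promoters of the genes that were measured at 50 CPM (UMIs of a gene per 1e6 UMIs) or more, the share was 4.72% (129 of 2733). Of the 64 genes at least 2-fold higher in responders in both libraries, described below, 51 had a promoter in the table, and 25 of their 66 promoters (37.9%) held the core. These included Isg15, Slfn5, Bst2, Tgtp2, Phf11a, Ifih1 and Jaml. The longer form, in which the core goes on with CT, was in 18.2% of those promoters, in 0.988% of promoters of the measured genes and in 0.271% of all. Of the cytotoxic effector genes, 4 of 22 promoters (18.2%) held the core.

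Ifit2 was the rule gene found most often, with a UMI in 170 of 250 IL-15SA+IL-21Fc responders (68.0%) and in 72 of 106 IL-15SA responders (67.9%). Mx1 was found in 56.4% of IL-15SA+IL-21Fc and 59.4% of IL-15SA responders, Ifit1 in 38.8% of IL-15SA+IL-21Fc and 34.0% of IL-15SA responders, and Mx2 in 30.8% of IL-15SA+IL-21Fc and 34.9% of IL-15SA responders. Ifit3 was found in 40.0% of IL-15SA+IL-21Fc and 27.4% of IL-15SA responders. Rsad2 and Cmpk2 were found in 22.8% and 24.8% of IL-15SA+IL-21Fc responders and in 28.3% and 26.4% of IL-15SA responders, so no rule gene was found in every responder. The most common pair was Ifit2 with Mx1, in 94 (37.6%) IL-15SA+IL-21Fc responders and 40 (37.7%) IL-15SA responders. The neighbours Rsad2 and Cmpk2 were found together in 20 IL-15SA+IL-21Fc and 6 IL-15SA responders. At least 2 of the 7 genes were found in 85.2% of IL-15SA+IL-21Fc and 84.9% of IL-15SA responders, so most did not rest on 1 gene.

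The sum of rule-gene UMIs ran on without a gap across the threshold. Exactly 2 UMIs were held by 241 IL-15SA+IL-21Fc barcodes and 90 IL-15SA barcodes, just outside the rule, and exactly 3 by 89 IL-15SA+IL-21Fc and 29 IL-15SA barcodes, just inside it. The median sum of responders was 4 in both libraries, the highest sums were 19 with IL-15SA+IL-21Fc and 16 with IL-15SA, and 23 IL-15SA+IL-21Fc and 9 IL-15SA responders reached 10. Responders held 50.6% of all rule-gene UMIs of eligible barcodes in the IL-15SA+IL-21Fc library and 49.2% in the IL-15SA library. The cut therefore took the upper end of this range. At counts this low, the lack of a gap cannot show whether responders were a separate group.

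**Figure D1:**
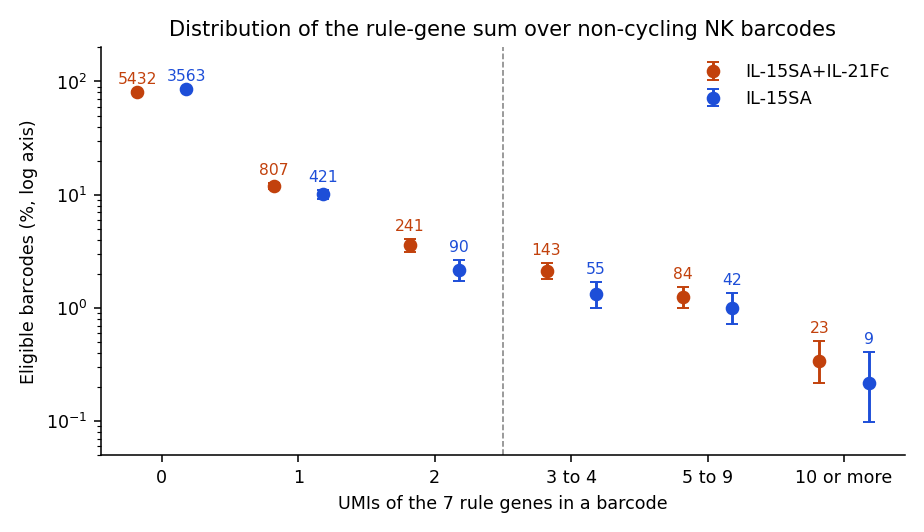
Share of eligible barcodes (log axis, 95% Clopper-Pearson intervals) by the summed UMIs of the 7 rule genes in the IL-15SA+IL-21Fc and IL-15SA libraries, with the number of barcodes above each point and the responder threshold dashed. Shares fall step by step, with 241 IL-15SA+IL-21Fc and 90 IL-15SA barcodes at 2 UMIs, and 143 IL-15SA+IL-21Fc and 55 IL-15SA barcodes at 3 to 4.

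Responders made up 3.71% of eligible barcodes in the IL-15SA+IL-21Fc library (exact binomial interval 3.28% to 4.19%) and 2.54% in the IL-15SA library (2.08% to 3.06%), a ratio of 1.46 (1.16 to 1.86). Eligible barcodes were shallower in the IL-15SA+IL-21Fc library, with a median of 2162 UMIs, against 2671 in the IL-15SA library. After thinning each barcode to 1000 UMIs, 11.5% (10.7% to 12.3%) with IL-15SA+IL-21Fc and 7.11% (6.34% to 7.93%) with IL-15SA held at least 1 rule-gene UMI. Summed over eligible barcodes, the rule genes reached 161.5 CPM with IL-15SA+IL-21Fc and 92.05 CPM with IL-15SA. Treatment and library cannot be told apart in this design.

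NK markers were present in responders and in sum-0 barcodes and summed to similar levels, though eligibility required Ncr1, one of them, in both. Gzma and Gzmb gave most of that sum, so it says little of the other NK markers. The sort does not remove innate lymphoid cells of type 1 (ILC1), which also carry NKp46. The 10 NK markers summed to 34797 CPM in responders and 33298 in sum-0 barcodes of the IL-15SA+IL-21Fc library, and to 39684 CPM in responders and 37875 in sum-0 barcodes in the IL-15SA library. Of 12 macrophage or monocyte markers, Lyz2, C1qa, C1qb, C1qc, Csf1r, Adgre1, Apoe and Ms4a7 had 0 UMIs in responders of both libraries, and the list summed to 563 CPM in responders and 600.4 in sum-0 barcodes with IL-15SA+IL-21Fc, and to 494 CPM in responders and 563.8 in sum-0 barcodes with IL-15SA. C1qa, C1qc and Csf1r were also at 0 in sum-0 barcodes of both libraries, and C1qb and Adgre1 in those with IL-15SA+IL-21Fc. Of the 12 macrophage or monocyte markers, 2 were at least 1.5-fold higher in responders with IL-15SA+IL-21Fc and 0 with IL-15SA. All 7 neutrophil markers had 0 UMIs in responders, and sum-0 barcodes held only 2 UMIs of that list with IL-15SA+IL-21Fc and 3 with IL-15SA. The 6 ILC1 markers summed to 385 CPM in responders and 314 in sum-0 barcodes with IL-15SA+IL-21Fc, and to 328 CPM in responders and 266 in sum-0 barcodes with IL-15SA. Of these, 1 was at least 1.5-fold higher in each library, Tnfsf10, which interferon also induces. Among T cell markers Cd4, Cd8a, Cd8b1 and Cd5 had 0 UMIs in responders, and that list summed to 1681 CPM in responders and 1741 in sum-0 barcodes with IL-15SA+IL-21Fc, and to 1556 CPM in responders and 1602 in sum-0 barcodes with IL-15SA. Cd8b1 was also at 0 in sum-0 barcodes of both libraries, and Cd8a and Cd5 in those with IL-15SA. The list for plasmacytoid dendritic cells summed to 629.8 CPM in responders and 269.9 in sum-0 barcodes with IL-15SA+IL-21Fc, and to 582 CPM in responders and 204 in sum-0 barcodes with IL-15SA, with Siglech, Ccr9, Ly6d and Klk1 at 0 in responders. In sum-0 barcodes Siglech and Ly6d were also at 0 in both libraries, and Klk1 with IL-15SA+IL-21Fc. The other 2 markers were higher in both libraries: Bst2, itself an ISG, and Tcf4, at 1.67-fold (1.26 to 2.18) with IL-15SA+IL-21Fc and 2.02-fold (1.34 to 2.95) with IL-15SA.

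Dendritic cell markers summed to 130.4 CPM in responders and 106 in sum-0 barcodes of the IL-15SA+IL-21Fc library, and to 146 CPM in responders and 52.4 in sum-0 barcodes in the IL-15SA library, with Flt3, Xcr1 and Clec9a at 0 in responders of both libraries. Clec9a was also at 0 in sum-0 barcodes of both libraries, and Xcr1 in those with IL-15SA. Of the 8 markers, 1 was at least 1.5-fold higher, with 1 CPM added, in responders with IL-15SA+IL-21Fc and 4 with IL-15SA. Cd74, the invariant chain of MHC class II, was 1.67-fold (1.13 to 2.40) higher with IL-15SA+IL-21Fc and 6.58-fold (3.91 to 10.6) with IL-15SA, on 32 UMIs in IL-15SA+IL-21Fc and 21 in IL-15SA responders. H2-Eb1 was 1.52-fold (0.887 to 2.46) higher with IL-15SA+IL-21Fc and 3.37-fold (1.41 to 6.98) with IL-15SA. The part of dendritic cell RNA in the results was not tested. Stromal markers summed to 289 CPM in responders and 278 in sum-0 barcodes with IL-15SA+IL-21Fc, and to 161 CPM in responders and 150.1 in sum-0 barcodes with IL-15SA. Of the 12 stromal markers, 0 were at least 1.5-fold higher in responders with IL-15SA+IL-21Fc and 2 with IL-15SA. The 5% of barcodes with the highest doublet scores in each library held 11 (4.4%) IL-15SA+IL-21Fc responders and 2 (1.89%) IL-15SA responders, against 3.30% of eligible barcodes with IL-15SA+IL-21Fc and 2.73% with IL-15SA. Responders were slightly deeper than sum-0 barcodes, with medians of 2240.5 UMIs in responders and 2123.5 in sum-0 barcodes with IL-15SA+IL-21Fc, and 2745.5 in responders and 2630 in sum-0 barcodes with IL-15SA. Their median mitochondrial share was 1.45% against 1.44% in the IL-15SA+IL-21Fc library, and 1.23% against 1.26% in the IL-15SA library. A total of 60 barcode sequences occurred in both libraries, of which 0 were responders with IL-15SA+IL-21Fc and 3 with IL-15SA.

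Most of the genes higher in responders than in sum-0 barcodes in both libraries were ISGs, and few genes were lower by as much. UMIs were summed over each class, which gave 628792 UMIs of IL-15SA+IL-21Fc responders and 329708 of IL-15SA responders, and were scaled to CPM. Ratios on the log2 scale have 1 CPM added, and those with an interval have nothing added. In the IL-15SA+IL-21Fc library 83 of 2955 genes at 50 CPM or more were at least 2-fold higher in responders (2.81%) and 8 at least 2-fold lower (0.271%). With IL-15SA the counts were 113 of 3018 genes (3.74%) and 29 (0.961%). Over the 2773 genes measured in both libraries, 64 were at least 2-fold higher in both and 0 at least 2-fold lower in both, and at 1.5-fold these were 114 and 14. At 1.5-fold the shares in each library were 5.92% higher and 2.3% lower with IL-15SA+IL-21Fc, and 9.15% higher and 6.1% lower with IL-15SA. Of the 64, 41 belonged to the lists of ISGs, feedback inhibitors, GTPases, MHC class I and IFITM genes, which had 97 genes measured, and 23 did not.

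**Figure D2:**
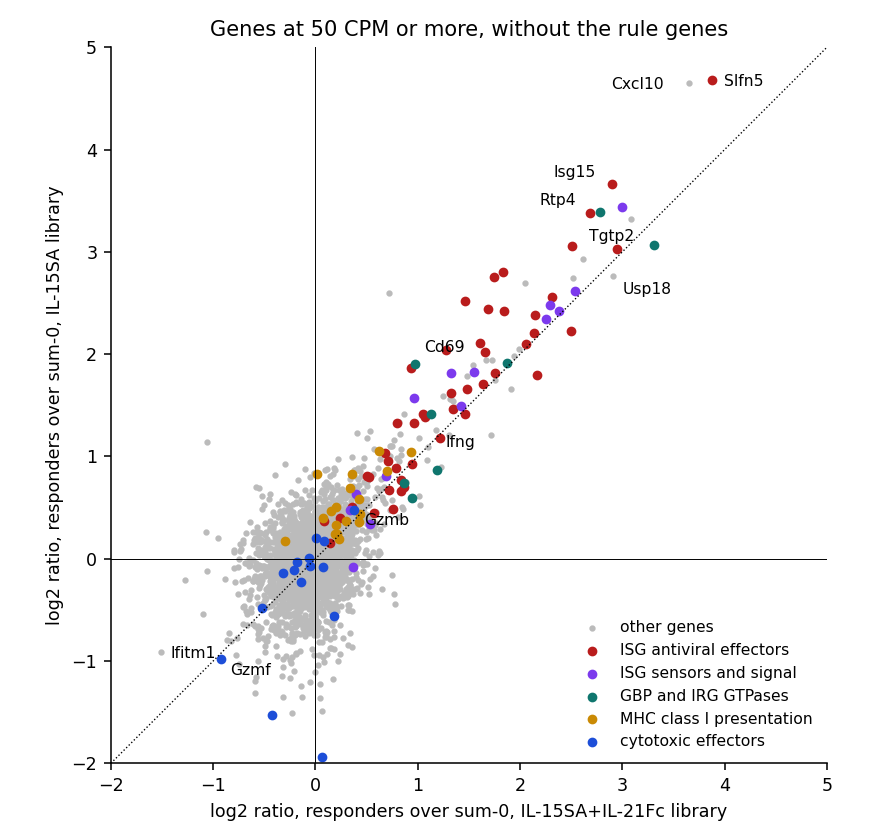
Log2 ratio of responders over sum-0 barcodes per gene in the IL-15SA+IL-21Fc library (x axis) and the IL-15SA library (y axis), for genes at 50 CPM or more and without the rule genes; colours mark gene lists. ISG and GTPase genes extend to the upper right, up to Slfn5 at 3.88 with IL-15SA+IL-21Fc and 4.68 with IL-15SA, while most genes lie around 0.

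The antiviral effectors, the largest interferon list, were higher in responders of both libraries. Of 74 measured members outside the rule, 65 were at least 1.5-fold higher in IL-15SA+IL-21Fc responders and 0 at least 1.5-fold lower, with a median log2 ratio of 1.44. In IL-15SA responders 59 of 69 were higher and 1, Trim21, was lower, with a median of 1.62. Over all genes at 5 CPM or more, 10.6% were at least 1.5-fold higher and 14.2% lower with IL-15SA+IL-21Fc (median -0.05), and 17% higher and 20.3% lower with IL-15SA (median -0.03). The list summed to 22667 CPM in responders and 11485 in sum-0 barcodes of the IL-15SA+IL-21Fc library, and to 20946 CPM in responders and 9885 in sum-0 barcodes in the IL-15SA library.

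Isg15, a ubiquitin-like protein that is joined to other proteins after interferon, was at 552 CPM in responders and 73.2 in sum-0 barcodes of the IL-15SA+IL-21Fc library, a ratio of 7.54 (6.65 to 8.54). In the IL-15SA library it was at 588 CPM in responders and 45.6 in sum-0 barcodes, and the ratio was 12.9 (10.9 to 15.2). Slfn5, a Schlafen family member, was at 102 CPM in responders and 5.98 in sum-0 barcodes with IL-15SA+IL-21Fc, and at 121 CPM in responders and 3.78 in sum-0 barcodes with IL-15SA. Its ratios, 17.0 (12.02 to 24.01) with IL-15SA+IL-21Fc and 32.1 (20.2 to 50.9) with IL-15SA, were the highest of the genes named. Rtp4, which restrains RNA virus replication, was 6.51-fold (5.57 to 7.58) higher with IL-15SA+IL-21Fc and 10.7-fold (8.50 to 13.4) with IL-15SA. Ifi44 was at 525 CPM in responders and 91.5 in sum-0 barcodes with IL-15SA+IL-21Fc, and at 525 CPM in responders and 62.0 in sum-0 barcodes with IL-15SA, so its level in responders was alike in the libraries.

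Bst2 (tetherin), which holds budding virions at the membrane, was at 534 CPM in responders and 212 in sum-0 barcodes with IL-15SA+IL-21Fc, and at 494 CPM in responders and 161 in sum-0 barcodes with IL-15SA. Averaged over both libraries, it was at 755 CPM in barcodes over the stromal limit and 211 in eligible barcodes. After the thinning used above, a Bst2 UMI was held by 40.0% of IL-15SA+IL-21Fc responders and 17.7% of sum-0 barcodes. Of IL-15SA+IL-21Fc barcodes over the stromal limit, 42.7% held it. With IL-15SA these shares were 40.6%, 13.8% and 41.4%, so Bst2 was not particular to responders. Xaf1, a pro-apoptotic ISG, was 3.62-fold higher with IL-15SA+IL-21Fc and 5.42-fold with IL-15SA, and Isg20, an exonuclease, 5.04-fold with IL-15SA+IL-21Fc and 5.99-fold with IL-15SA. Eif2ak2 (PKR), the kinase that halts translation on double-stranded RNA, was 3.44-fold (2.57 to 4.53) higher with IL-15SA+IL-21Fc and 6.998-fold (5.05 to 9.53) with IL-15SA. Phf11a and Phf11c, near-identical neighbours of one gene cluster, were 8.13-fold and 9.57-fold higher in the IL-15SA+IL-21Fc library and 8.62-fold and 11.7-fold higher in the IL-15SA library. How the authors assigned reads among close paralogues such as the Phf11, Ifi200, Schlafen and Oas genes is not given in the sources used here, so the split within those families is uncertain.

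**Figure D3:**
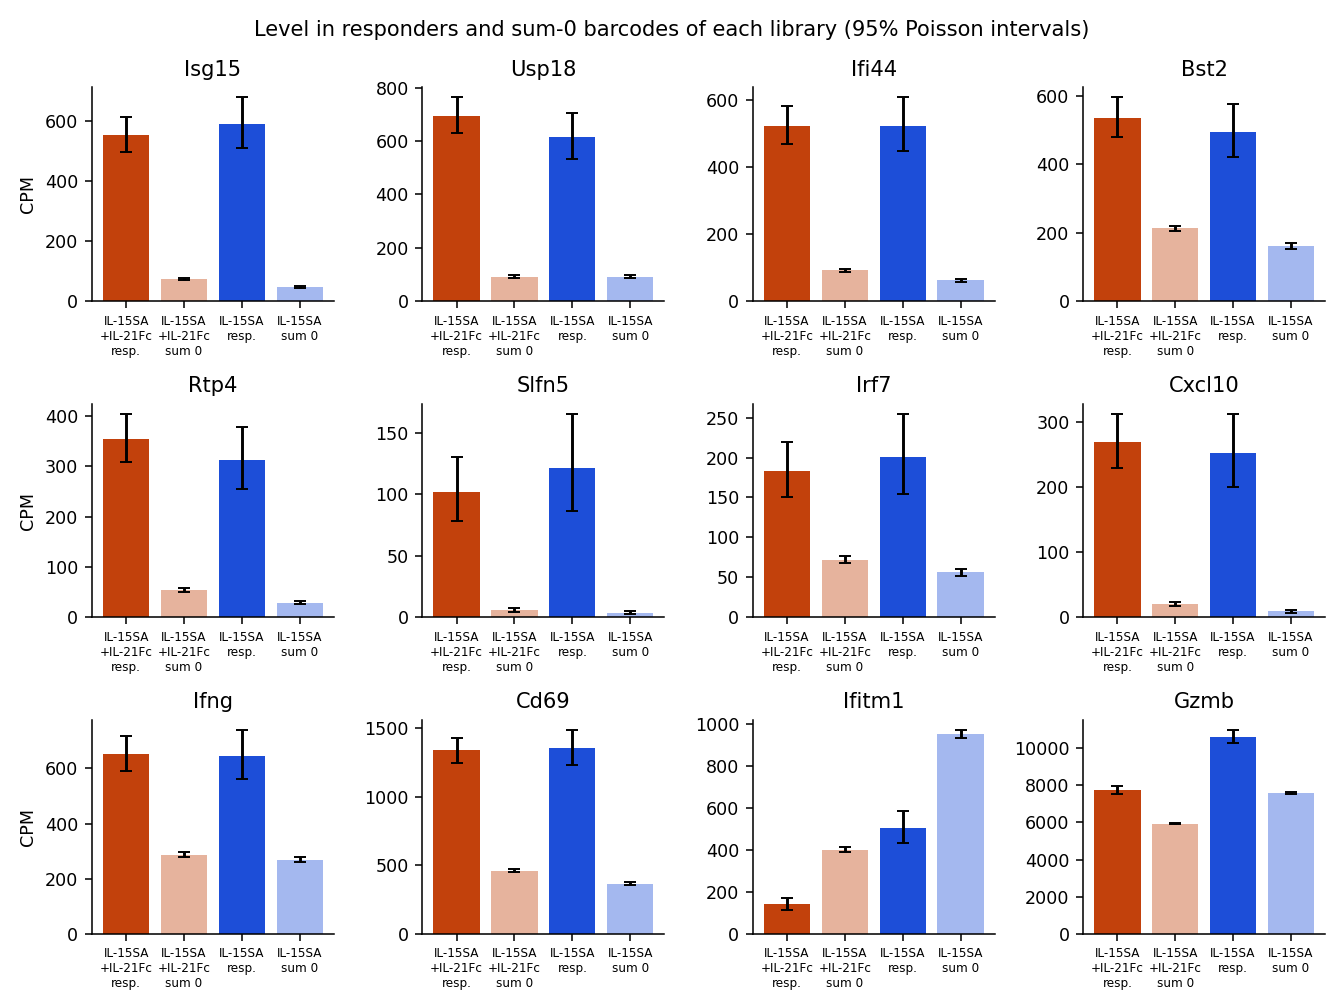
CPM of 12 genes outside the rule in responders (resp., solid bars) and sum-0 barcodes (pale bars) of the IL-15SA+IL-21Fc and IL-15SA libraries, with 95% Poisson intervals. Isg15 is at 552 CPM in responders and 73.2 in sum-0 barcodes with IL-15SA+IL-21Fc, and at 588 and 45.6 CPM with IL-15SA, and Ifitm1 is the gene drawn with lower bars in responders of both libraries.

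The sensors and signal transducers were also higher. Of 19 measured members, 14 were at least 1.5-fold higher in IL-15SA+IL-21Fc responders, and of 20 members 16 in IL-15SA responders, with medians of 1.55 (IL-15SA+IL-21Fc) and 1.65 (IL-15SA) and none at least 1.5-fold lower. Ifih1 (MDA5), a cytosolic sensor of long double-stranded RNA, was at 58.8 CPM in responders and 11.2 in sum-0 barcodes with IL-15SA+IL-21Fc, and at 57.6 CPM in responders and 9.50 in sum-0 barcodes with IL-15SA. Ddx58 (RIG-I), which senses short double-stranded RNA ends, was 2.99-fold (2.32 to 3.804) higher with IL-15SA+IL-21Fc and 3.61-fold (2.59 to 4.92) with IL-15SA. Zbp1, a sensor of Z-form nucleic acid that can start necroptosis, was at 410.3 CPM in responders and 121 in sum-0 barcodes with IL-15SA+IL-21Fc, and at 322 CPM in responders and 90.5 in sum-0 barcodes with IL-15SA. The Ifi200 genes Ifi206, Ifi209 and Ifi214 were 8.29-fold, 5.27-fold and 4.83-fold higher in the IL-15SA+IL-21Fc library and 11.4-fold, 5.42-fold and 5.14-fold higher in the IL-15SA library.

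Irf7, the transcription factor that amplifies type I interferon production, was at 183 CPM in responders and 72.3 in sum-0 barcodes with IL-15SA+IL-21Fc, and at 200.2 CPM in responders and 56.3 in sum-0 barcodes with IL-15SA. Stat2, a transcription factor of the type I interferon signal, was 3.28-fold (2.30 to 4.57) higher with IL-15SA+IL-21Fc and 2.91-fold (1.63 to 4.85) with IL-15SA. Irf9, its DNA-binding partner, was 1.63-fold (1.17 to 2.23) higher with IL-15SA+IL-21Fc and 1.78-fold (1.07 to 2.79) with IL-15SA. Irf1, a transcription factor that interferon gamma induces, was 1.32-fold (1.07 to 1.60) higher with IL-15SA+IL-21Fc and 1.56-fold (1.16 to 2.06) with IL-15SA. Stat2, Irf9 and Irf1 were thus higher in responders of both libraries.

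Of the 10 feedback inhibitors measured, 2 were at least 1.5-fold higher with IL-15SA+IL-21Fc (median 0.41) and 3 with IL-15SA (median 0.32). The share of all genes at 5 CPM or more that were so was 10.6% with IL-15SA+IL-21Fc and 17% with IL-15SA. Usp18, which removes Isg15 from proteins and blocks the type I receptor, was at 695 CPM in responders and 91.4 in sum-0 barcodes of the IL-15SA+IL-21Fc library, a ratio of 7.60 (6.80 to 8.49). With IL-15SA it was at 616 CPM in responders and 89.9 in sum-0 barcodes, and the ratio was 6.85 (5.86 to 7.97). Socs1, an inhibitor of Jak kinases, was 1.57-fold (1.32 to 1.85) higher with IL-15SA+IL-21Fc and 1.60-fold (1.29 to 1.98) with IL-15SA. Socs3, which restrains Stat3 signals, had ratios of 1.49 (1.18 to 1.85) with IL-15SA+IL-21Fc and 1.22 (0.846 to 1.69) with IL-15SA.

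The receptors and kinases did not stand above all genes. None of 7 measured members was at least 1.5-fold higher in either library, 1 was lower in each, and the medians were -0.15 with IL-15SA+IL-21Fc and 0.20 with IL-15SA. Ifnar1 had ratios of 0.839 (0.617 to 1.12) with IL-15SA+IL-21Fc and 1.22 (0.837 to 1.73) with IL-15SA, and Ifngr1, a chain of the interferon gamma receptor, 0.904 (0.812 to 1.00) with IL-15SA+IL-21Fc and 0.886 (0.756 to 1.03) with IL-15SA. Ifnar2 had 12 UMIs in IL-15SA+IL-21Fc responders and 0 in IL-15SA responders.

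Of the 10 interferon genes looked for, Ifng alone had UMIs in responders, 410 in the IL-15SA+IL-21Fc library and 213 in the IL-15SA library. The type I and type III genes had 0 UMIs in responders, and the whole IL-15SA+IL-21Fc library held 3 UMIs of Ifnb1 and the whole IL-15SA library 2 of Ifna2. A value of 0 in these files can reflect how reads were assigned, as for Il2rg, a receptor chain NK cells need, which had 0 UMIs. Ifng was at 652 CPM in responders and 288 in sum-0 barcodes of the IL-15SA+IL-21Fc library, a ratio of 2.27 (2.04 to 2.51). In the IL-15SA library it was at 646 CPM in responders and 269 in sum-0 barcodes, and the ratio was 2.40 (2.08 to 2.76). Thinned to 1000 UMIs, 38.0% of responders held an Ifng UMI with IL-15SA+IL-21Fc, against 20.5% of sum-0 barcodes and 8.47% of barcodes over the stromal limit, and with IL-15SA 32.1%, against 19.8% and 10.4%. Unthinned, the shares were 54.4% of responders and 33.8% of sum-0 barcodes with IL-15SA+IL-21Fc, and 60.4% and 37.7% with IL-15SA. The barcodes over the stromal limit had median depths of 1906 UMIs with IL-15SA+IL-21Fc and 2119.5 with IL-15SA.

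The GTPases of the guanylate-binding (GBP) and immunity-related (IRG) families, which interferon gamma and type I interferon induce and which attack the vacuoles of intracellular pathogens, were higher throughout. All 9 measured members were at least 1.5-fold higher in responders of both libraries, with medians of 1.13 (IL-15SA+IL-21Fc) and 1.41 (IL-15SA). Tgtp2 was at 249.7 CPM in responders and 35.4 in sum-0 barcodes with IL-15SA+IL-21Fc, and at 215 CPM in responders and 19.6 in sum-0 barcodes with IL-15SA, ratios of 7.06 (5.85 to 8.48) with IL-15SA+IL-21Fc and 11.0 (8.26 to 14.4) with IL-15SA. Iigp1 was at 116 CPM in responders and 10.8 in sum-0 barcodes with IL-15SA+IL-21Fc, and at 54.6 CPM in responders and 5.63 in sum-0 barcodes with IL-15SA. Gbp2 was 2.22-fold (1.73 to 2.81) higher with IL-15SA+IL-21Fc and 2.70-fold (1.91 to 3.71) with IL-15SA, and Irgm1 3.73-fold (2.96 to 4.66) higher with IL-15SA+IL-21Fc and 3.86-fold (2.72 to 5.35) with IL-15SA. Averaged over both libraries, barcodes over the stromal limit held 113 CPM of Iigp1 and 291 of Gbp2, against 11.7 and 54.7 in eligible barcodes.

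MHC class I genes were higher by a small amount. Of 20 measured members 5 were at least 1.5-fold higher and 0 lower with IL-15SA+IL-21Fc (median 0.32), and 7 higher and 1 lower with IL-15SA (median 0.45). Among all genes at 5 CPM or more, 10.6% were higher and 14.2% lower with IL-15SA+IL-21Fc, and 17% and 20.3% with IL-15SA. B2m, the light chain, was 1.16-fold (1.12 to 1.20) higher with IL-15SA+IL-21Fc and 1.18-fold (1.12 to 1.24) with IL-15SA, and H2-K1 1.15-fold (1.10 to 1.20) higher with IL-15SA+IL-21Fc and 1.26-fold (1.18 to 1.33) with IL-15SA. Tap1, which carries peptides into the endoplasmic reticulum, had a larger ratio, 1.93 (1.55 to 2.37) with IL-15SA+IL-21Fc and 2.07 (1.54 to 2.73) with IL-15SA. Psmb9, an immunoproteasome subunit, was 1.35-fold (1.19 to 1.51) higher with IL-15SA+IL-21Fc and 1.5002-fold (1.28 to 1.75) with IL-15SA.

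The IFITM family, membrane proteins that block viral entry, differed among its members. Ifitm3 averaged 2246 CPM in barcodes over the stromal limit and 361 in eligible barcodes of both libraries. It was at 539 CPM in responders and 321 in sum-0 barcodes with IL-15SA+IL-21Fc, and at 582 CPM in responders and 391 in sum-0 barcodes with IL-15SA. Ifitm1 ran the other way, at 139.9 CPM in responders and 399.9 in sum-0 barcodes of the IL-15SA+IL-21Fc library, a ratio of 0.350 (0.280 to 0.432). In the IL-15SA library it was at 503 CPM in responders and 950.05 in sum-0 barcodes, and the ratio was 0.530 (0.452 to 0.618). It was the only member of the interferon lists at least 1.5-fold lower in both libraries. The share of barcodes with an Ifitm1 UMI differed less, at 16.8% of responders and 17.9% of sum-0 barcodes with IL-15SA+IL-21Fc, and 40.6% of responders and 43.1% of sum-0 barcodes with IL-15SA. Thinned to 1000 UMIs, the shares were 7.2% of responders and 11.2% of sum-0 barcodes with IL-15SA+IL-21Fc, and 21.7% of responders and 26.5% of sum-0 barcodes with IL-15SA. Over the settings tried, the log2 ratio of Ifitm1 ran from -1.91 to -0.76 with IL-15SA+IL-21Fc and from -1.67 to -0.59 with IL-15SA. It did not follow the rule-gene sum in order, and the 23 IL-15SA+IL-21Fc barcodes with 10 or more rule-gene UMIs were at 470.3 CPM (313 to 679.7).

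Ratios of chemokines and cytokines over sum-0 barcodes differed between the libraries. IL-15SA+IL-21Fc over IL-15SA, the list's median was 0.18 within responders and 0.65 within sum-0 barcodes. Over all genes at 5 CPM or more, 10.6% were at least 1.5-fold higher in responders with IL-15SA+IL-21Fc and 17% with IL-15SA. Of 15 measured, 2 were at least 1.5-fold higher in IL-15SA+IL-21Fc responders and 8 in IL-15SA responders, with medians of 0.11 (IL-15SA+IL-21Fc) and 0.67 (IL-15SA), and that with IL-15SA+IL-21Fc turned to -0.02 with no minimum on the level. Cxcl10, an interferon-induced chemokine that draws T cells and NK cells, was at 269 CPM in responders and 20.4 in sum-0 barcodes of the IL-15SA+IL-21Fc library, a ratio of 13.2 (10.8 to 16.01). In the IL-15SA library it was at 252 CPM in responders and 9.04 in sum-0 barcodes, and the ratio was 27.9 (20.5 to 37.7). After the thinning used above, a Cxcl10 UMI was held by 20.4% of IL-15SA+IL-21Fc responders and 1.88% of sum-0 barcodes. Of IL-15SA+IL-21Fc barcodes over the stromal limit, 4.31% held it. With IL-15SA these shares were 13.2%, 0.786% and 7.49%. Tnfsf10 (TRAIL), a death ligand, was 3.30-fold (2.23 to 4.75) higher with IL-15SA+IL-21Fc and 2.78-fold (1.40 to 5.01) with IL-15SA. Xcl1, a chemokine for dendritic cells that cross-present, was 1.42-fold (1.34 to 1.505) higher with IL-15SA+IL-21Fc and 1.70-fold (1.55 to 1.86) with IL-15SA, and Ccl4 1.38-fold (1.33 to 1.44) higher with IL-15SA+IL-21Fc and 1.88-fold (1.78 to 1.98) with IL-15SA. Ccl5 had ratios of 1.08 (1.05 to 1.11) with IL-15SA+IL-21Fc and 0.975 (0.923 to 1.03) with IL-15SA, which turned with the cut of the rule.

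Cd69, an early activation marker that keeps lymphocytes in tissue, was at 1337 CPM in responders and 459.6 in sum-0 barcodes of the IL-15SA+IL-21Fc library, a ratio of 2.91 (2.70 to 3.13). In the IL-15SA library it was at 1353 CPM in responders and 364 in sum-0 barcodes, and the ratio was 3.72 (3.36 to 4.10). Thinned to 1000 UMIs, 60.4% of responders held a Cd69 UMI with IL-15SA+IL-21Fc, against 30.8% of sum-0 barcodes and 17.0% of barcodes over the stromal limit, and with IL-15SA 58.5%, against 27.4% and 11.8%. Unthinned, the shares were 82.0% of responders and 48.7% of sum-0 barcodes with IL-15SA+IL-21Fc, and 81.1% and 49.0% with IL-15SA. Of the activating receptors measured, 17 with IL-15SA+IL-21Fc and 16 with IL-15SA, Cd69 alone was at least 1.5-fold higher in both libraries, and the medians were 0.12 with IL-15SA+IL-21Fc and 0.02 with IL-15SA.

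The cytotoxic effectors were not higher as a list, with medians of -0.10 (IL-15SA+IL-21Fc) and -0.09 (IL-15SA) over 20 genes. With IL-15SA+IL-21Fc 1 gene was at least 1.5-fold higher and 2 lower, and with IL-15SA 1 was higher and 5 lower. Of all genes at 5 CPM or more, 10.6% were higher and 14.2% lower with IL-15SA+IL-21Fc, and 17% and 20.3% with IL-15SA. Gzmb, the granzyme that starts apoptosis in target cells, was at 7743 CPM in responders and 5942 in sum-0 barcodes with IL-15SA+IL-21Fc, and at 10615 CPM in responders and 7605 in sum-0 barcodes with IL-15SA, 1.30-fold (1.27 to 1.34) higher with IL-15SA+IL-21Fc and 1.40-fold (1.35 to 1.44) with IL-15SA. Gzma, its tryptase relative, was at 16029 CPM in responders and 16587 in sum-0 barcodes with IL-15SA+IL-21Fc, and at 18404 CPM in responders and 19369 in sum-0 barcodes with IL-15SA. Prf1 (perforin) had ratios of 0.800 (0.745 to 0.859) with IL-15SA+IL-21Fc and 0.906 (0.835 to 0.980) with IL-15SA, and Gzmf 0.518 (0.300 to 0.835) with IL-15SA+IL-21Fc and 0.503 (0.306 to 0.780) with IL-15SA. Gzmd, a neighbour and close paralogue of Gzmf, differed between the libraries, with ratios of 1.04 (0.815 to 1.32) with IL-15SA+IL-21Fc and 0.258 (0.159 to 0.395) with IL-15SA. Reads shared among the near-identical granzymes C to G make each single value uncertain.

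Some of the 23 genes outside the interferon lists were chosen for mention after their values were seen. Casp4, the inflammatory caspase that senses cytosolic lipopolysaccharide, was 3.24-fold (2.53 to 4.10) higher with IL-15SA+IL-21Fc and 3.94-fold (2.74 to 5.53) with IL-15SA. Jaml, an adhesion and costimulatory molecule, was at 202 CPM in responders and 60.1 in sum-0 barcodes with IL-15SA+IL-21Fc, and at 221 CPM in responders and 57.0 in sum-0 barcodes with IL-15SA. Mxd1, a partner of Max that opposes Myc, was 2.53-fold (2.15 to 2.96) higher with IL-15SA+IL-21Fc and 2.97-fold (2.32 to 3.76) with IL-15SA. Nt5c3, a pyrimidine nucleotidase, was 3.41-fold (2.93 to 3.96) higher with IL-15SA+IL-21Fc and 3.38-fold (2.75 to 4.12) with IL-15SA. Among the genes lower in both libraries, Rgs16, a brake on G protein signals, had ratios of 0.609 (0.450 to 0.806) with IL-15SA+IL-21Fc and 0.642 (0.441 to 0.905) with IL-15SA. P4ha1, a collagen hydroxylase that hypoxia induces, had 0.558 (0.348 to 0.851) with IL-15SA+IL-21Fc and 0.566 (0.291 to 0.995) with IL-15SA.

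Lists of cell state differed little from all genes. The MYC and ribosome biogenesis list had medians of -0.18 with IL-15SA+IL-21Fc and -0.23 with IL-15SA, and glycolysis of -0.17 with IL-15SA+IL-21Fc and -0.21 with IL-15SA, all below 0 in every setting tried. Npm1, a nucleolar chaperone, was at 1439 CPM in responders and 1730.0 in sum-0 barcodes with IL-15SA+IL-21Fc, and at 1820 CPM in responders and 2281 in sum-0 barcodes with IL-15SA. Myc itself was 1.44-fold (1.25 to 1.65) higher with IL-15SA+IL-21Fc and 1.44-fold (1.20 to 1.71) with IL-15SA. NK maturation genes had medians of -0.12 with IL-15SA+IL-21Fc and 0.08 with IL-15SA, and each changed sign in some settings. Klrg1, a marker of mature NK cells, had ratios of 0.913 (0.850 to 0.980) with IL-15SA+IL-21Fc and 0.800 (0.721 to 0.886) with IL-15SA, and Eomes, a lineage factor, 0.931 (0.723 to 1.18) with IL-15SA+IL-21Fc and 0.915 (0.634 to 1.28) with IL-15SA. The IL-21 and STAT3 list had medians of 0.31 with IL-15SA+IL-21Fc and 0.28 with IL-15SA, and the IL-15 and STAT5 list 0.05 with IL-15SA+IL-21Fc and 0.25 with IL-15SA.

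**Figure D4:**
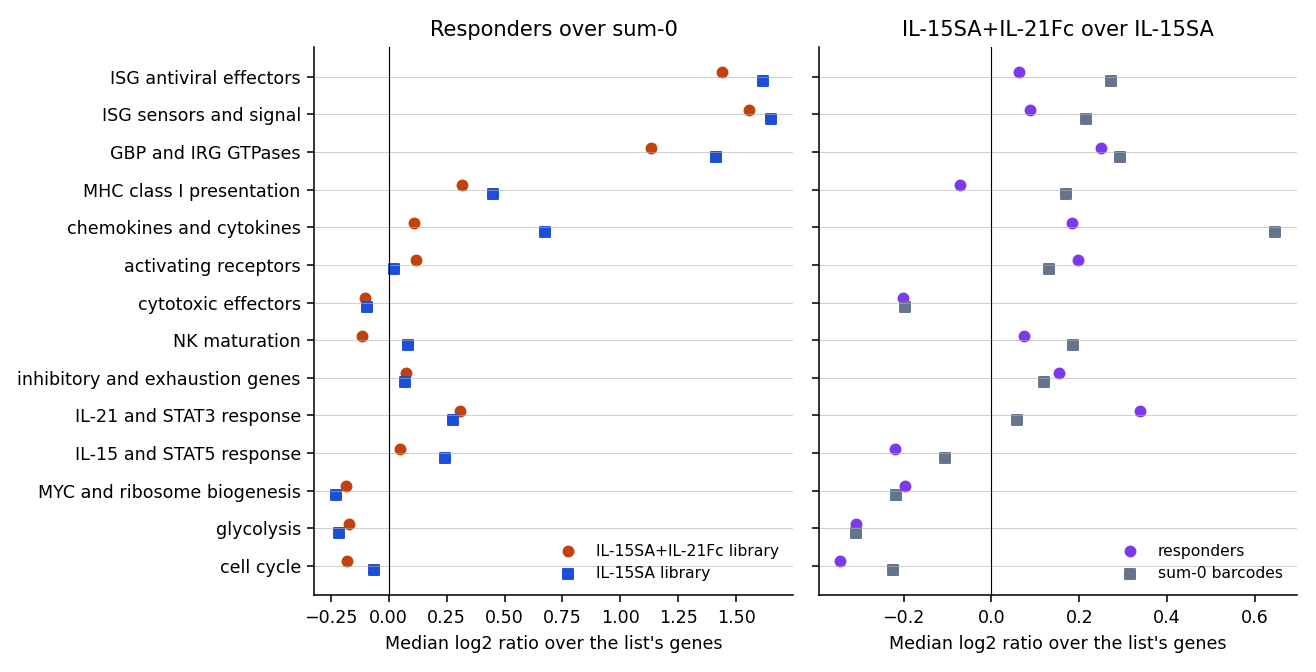
Median log2 ratio over the measured genes of 14 lists: left, responders over sum-0 barcodes in the IL-15SA+IL-21Fc and IL-15SA libraries; right, IL-15SA+IL-21Fc over IL-15SA within responders and within sum-0 barcodes. The left medians of the 3 uppermost lists lie between 1.13 and 1.65, and their right medians between 0.06 and 0.29.

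Isg15 and the summed antiviral effector list, both outside the rule, were higher in barcodes with more rule-gene UMIs, also within responders. Isg15 was at 73.2, 128, 280, 393, 743 and 806 CPM in IL-15SA+IL-21Fc barcodes with 0, 1, 2, 3 to 4, 5 to 9 and 10 or more rule-gene UMIs. In IL-15SA barcodes it was at 45.6, 89.4, 182, 504, 620 and 1011 CPM over the same steps. Single ISGs did not all rise within responders. Ifi44 was at 591, 491 and 243 CPM in IL-15SA barcodes with 3 to 4, 5 to 9 and 10 or more, the last on 6 UMIs. Irf7 was at 153, 241 and 151 CPM over these steps with IL-15SA+IL-21Fc. The antiviral effector list was higher at each step, up to 30604 CPM in IL-15SA+IL-21Fc and 24745 CPM in IL-15SA barcodes with 10 or more, and barcodes with 2 UMIs, just outside the rule, lay between those with 1 and those with 3 to 4. By the number of rule genes found, which is 1, 2, 3 or at least 4, the list summed to 16338, 20344, 23573 and 28352 CPM in IL-15SA+IL-21Fc responders and to 15046, 20260.5, 21150 and 25948 CPM in IL-15SA responders. Cd69 reached 2452 CPM (2071 to 2884) in the 23 IL-15SA+IL-21Fc barcodes with 10 or more and 5095 CPM (4244 to 6066) in the 9 such IL-15SA barcodes.

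In the same barcodes Gzma was at 12682 CPM, against 16587 in sum-0 barcodes, with IL-15SA+IL-21Fc, and at 8612 CPM, against 19369, with IL-15SA. Klrg1 was at 655 CPM (466 to 896), against 1397 in sum-0 barcodes, with IL-15SA+IL-21Fc. With IL-15SA it was at 202 CPM (65.6 to 472), on 5 UMIs, against 1433. At 3 to 4 and 5 to 9 rule-gene UMIs it was at 1326 and 1364 CPM with IL-15SA+IL-21Fc, and 1274 and 1157 with IL-15SA. Without the 23 IL-15SA+IL-21Fc and 9 IL-15SA barcodes with 10 or more, an alternative chosen after seeing the data, the median of the effector list over sum-0 barcodes was 1.41 in the IL-15SA+IL-21Fc library and 1.44 in the IL-15SA library.

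**Figure D5:**
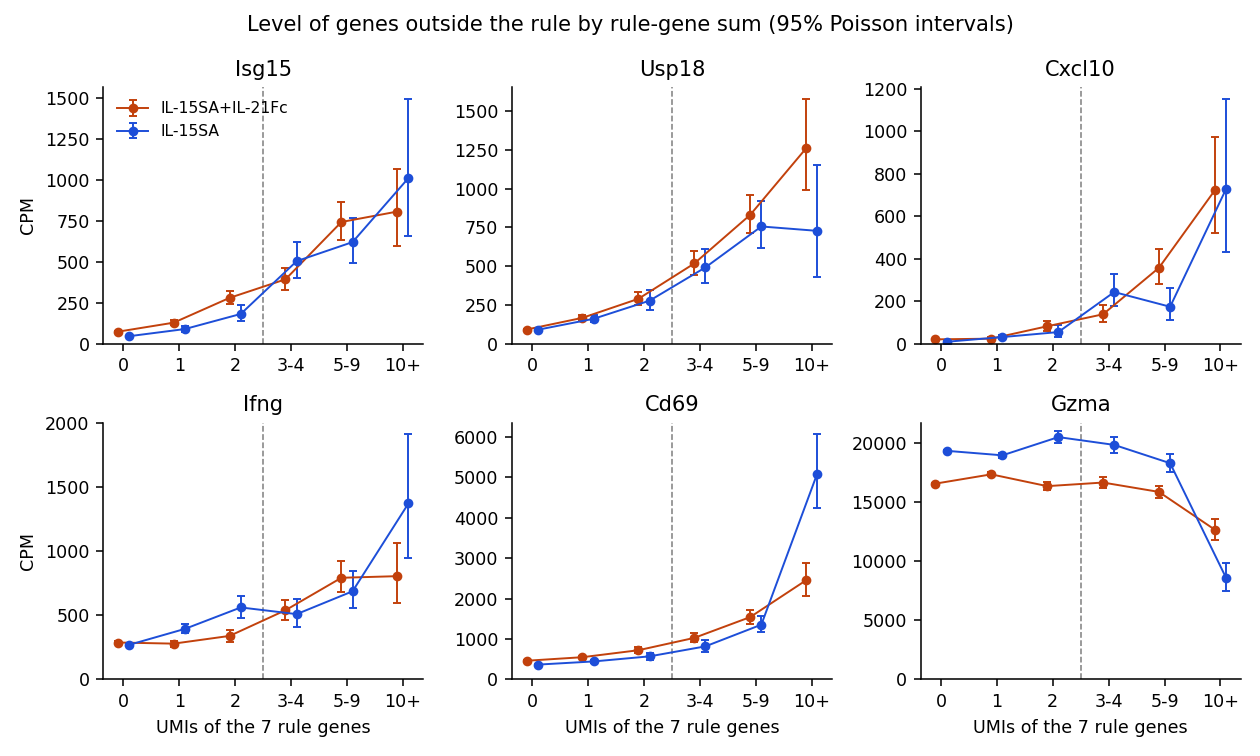
CPM of 6 genes outside the rule (y axis, 95% Poisson intervals) by the summed UMIs of the 7 rule genes (x axis) in the IL-15SA+IL-21Fc and IL-15SA libraries, with the responder threshold dashed. Isg15 goes up along the axis in both libraries, to 806 CPM with IL-15SA+IL-21Fc and 1011 with IL-15SA, while Gzma is lowest at 10 or more, at 12682 CPM with IL-15SA+IL-21Fc and 8612 with IL-15SA.

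Between treatments the medians of antiviral effectors and sensors were closer in responders than in sum-0 barcodes, while those of GTPases differed little between the classes. Within responders the median log2 ratio of IL-15SA+IL-21Fc over IL-15SA was 0.06 for the antiviral effectors, 0.09 for sensors and 0.25 for GTPases, and within sum-0 barcodes 0.27, 0.22 and 0.29. With depth matched, the medians within responders turned to -0.06 for effectors and -0.10 for sensors. Isg15 had a ratio of 0.938 (0.784 to 1.12) within responders and 1.60 (1.44 to 1.79) within sum-0 barcodes. Rtp4 had 1.14 (0.895 to 1.45) within responders and 1.87 (1.63 to 2.14) within sum-0 barcodes, and Cxcl10 1.07 (0.816 to 1.41) within responders and 2.26 (1.79 to 2.88) within sum-0 barcodes. Other ISGs did not follow this. Usp18 had 1.13 (0.954 to 1.34) within responders and 1.02 (0.933 to 1.11) within sum-0 barcodes. Iigp1 had 2.13 (1.26 to 3.79) within responders and 1.92 (1.41 to 2.64) within sum-0 barcodes. The same cut on UMIs chose responders in both libraries, and sum-0 barcodes were shallower in the IL-15SA+IL-21Fc library.

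Some genes that differed between treatments in sum-0 barcodes differed in the same direction in responders. Ccl5, a chemokine of effector NK cells, was at 9749 CPM in IL-15SA+IL-21Fc and 4067 CPM in IL-15SA responders, a ratio of 2.40 (2.26 to 2.54), and the ratio in sum-0 barcodes was 2.17 (2.14 to 2.19). Ifitm1 had a ratio of 0.278 (0.212 to 0.362) in responders and 0.421 (0.407 to 0.435) in sum-0 barcodes. Gzmb had ratios of 0.729 (0.698 to 0.762) in responders and 0.781 (0.774 to 0.789) in sum-0 barcodes, and Prf1 0.674 (0.607 to 0.750) in responders and 0.763 (0.749 to 0.778) in sum-0 barcodes. Gzmd had opposite directions, with ratios of 1.85 (1.13 to 3.16) in responders and 0.456 (0.428 to 0.486) in sum-0 barcodes. The cytotoxic list had a median of -0.20 in both classes, and glycolysis of -0.31 in both.

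Over 3057 genes at 50 CPM or more within responders, 56 were at least 2-fold higher with IL-15SA+IL-21Fc (1.83%) and 60 at least 2-fold lower (1.96%), against 2 (0.0707%) and 5 (0.177%) of 2830 genes in the far deeper sums of sum-0 barcodes. At 1.5-fold, 7.62% were higher and 9.55% lower within responders, against 1.06% and 0.495% within sum-0 barcodes, and over genes at 5 CPM or more 21.6% and 20.9%, against 2.7% and 0.863%. In IL-15SA responders 1 UMI equals 3.03 CPM, and the genes named next rest on few UMIs. Trim44, with the highest ratio of the genes named at 50 CPM or more, had 42 UMIs in IL-15SA+IL-21Fc and 5 in IL-15SA responders, a ratio of 4.40 (1.75 to 14.3), and a ratio of 1.08 (0.935 to 1.25) in sum-0 barcodes. Usp8, with the lowest of these, had 14 UMIs in IL-15SA+IL-21Fc and 28 in IL-15SA responders, a ratio of 0.262 (0.128 to 0.515), and 0.957 (0.841 to 1.09) in sum-0 barcodes. Tnfsf8 (CD30 ligand) had 39 UMIs in IL-15SA+IL-21Fc and 7 in IL-15SA responders, a ratio of 2.92 (1.29 to 7.74), and 1.38 (1.09 to 1.75) in sum-0 barcodes. Stat3, which had more UMIs and is a main transducer of IL-21, had a ratio of 1.65 (1.18 to 2.33) in responders and 1.03 (0.969 to 1.09) in sum-0 barcodes.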

How the data were processed

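The deposited files hold whole-number UMI counts per gene and barcode, as the authors deposited them, for 53715 listed genes. Per the submitters' processing notes, the processing named Scanpy, Seurat 4, cutadapt, featureCounts and mm10, with no order or settings. Groups follow the sample titles, although the title of the whole series refers to IL-21 alone and with IL-15. From these counts, eligible barcodes and responders were chosen by the rule stated above, and UMIs were summed per library and class and scaled to CPM. Genes at 50 CPM or more were counted at 2-fold, and lists at 5 CPM or more at 1.5-fold, always without the 7 rule genes. Ratio intervals are exact conditional binomial, levels Poisson and shares Clopper-Pearson, all at 95%, and treat UMIs as independent. The libraries held 35336180 (IL-15SA+IL-21Fc) and 30893388 (IL-15SA) UMIs.

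Python 3.11.15, numpy 2.4.6, scipy 1.17.1, pandas 2.3.3 and scanpy 1.11.5 were used, with edgeR 4.0.16 in R 4.3.3 for TMM scaling as an alternative. Doublets were scored with Scrublet per library and kept, and leaving out the top 5% was an alternative. The log2 ratios were tested on simulated gene totals, drawn as independent counts and not per barcode. Coverage of the intervals was not tested. Named genes were the 15 highest and 10 lowest ratios held in both libraries, the 10 highest and lowest between treatments, and fixed key genes and list members. Eif2ak2, Irf1, Xaf1, Jaml, Mxd1, Nt5c3 and Trim21 fall outside that rule and were chosen after their values were seen. The responders and all lists were chosen with earlier results of these data known. 1 result is not reported here.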

Additional observations from a re-analysis of the deposited data

Results flagged for a closer look

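Barcodes left out by the eligibility limits also reached 3 rule-gene UMIs. Among barcodes over the stromal limit these were 75 of 1323 (5.67%, interval 4.48% to 7.05%) with IL-15SA+IL-21Fc and 23 of 374 (6.15%, 3.94% to 9.08%) with IL-15SA. Among cycling barcodes they were 141 of 3579 (3.94%) and 92 of 3370 (2.73%), and among barcodes without Ncr1 18 of 558 (3.23%) and 4 of 279 (1.43%).

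Some values had opposite directions in the libraries, and no difference between them was tested. The median log2 ratio of responders over sum-0 barcodes was -0.37 (IL-15SA+IL-21Fc) and 0.53 (IL-15SA) for the IFITM family, -0.12 and 0.08 for NK maturation, and -0.15 and 0.20 for interferon receptors and kinases. The ratio was 0.561 and 2.05 for Usp8 and 0.772 and 1.45 for Ifitm10.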

How the results depend on the processing

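No paired analysis was possible because each treatment had 1 library. Across the alternatives run, 45 of the counts, shares and medians that answer a comparison moved and 120 did not. Of these, the effector median between treatments within responders changed sign, as given below. In what follows, counts are of genes at least 2-fold higher and lower, and medians are log2 over the antiviral effectors unless named. With a sum of at least 2, the IL-15SA+IL-21Fc library had 1 lower gene and a median of 1.17, the IL-15SA library 66 higher, 5 lower and 1.23, and responders between treatments 20 higher, 11 lower and 0.17. With a sum of at least 5, these were 153, 52 and 1.64 (cytotoxic median -0.26), 238 and 94, and 203, 256 and 0.17 (cytotoxic -0.35). With rule genes at 0.1% or more of UMIs, the share ratio was 1.91 and the IL-15SA library had 52 lower genes. Without barcodes holding myeloid markers, there were 35 lower with IL-15SA+IL-21Fc, 224 higher and 137 lower with IL-15SA, and 172 and 235 between treatments, with medians of 0.17 and -0.079 (cytotoxic). That setting left out barcodes with at least 2 UMIs summed over the macrophage and dendritic cell markers, not counting Cd74, H2-Aa and H2-Eb1. These were 40% of responders and 40.3% of eligible barcodes with IL-15SA+IL-21Fc, and 44.3% and 46.0% with IL-15SA. With 5 CPM added, 4 were lower with IL-15SA+IL-21Fc and the medians were 1.21 and 1.39. With a 20 CPM minimum, counts were 144 and 70, 273 and 203, and 339 and 326; with none, 1121 and 1622, 1372 and 2691 (median 1.41), and 3367 and 1726. Matched on depth, the median between treatments was -0.058, against 0.063. Without sums of 10 or more, chosen after seeing the data, the IL-15SA median was 1.44. TMM scaling gave 71 higher and 52 lower between treatments, against 56 and 60. More or fewer genes or barcodes enter by construction in the settings of minimum, sum and myeloid markers. Any further cause was not tested. In IL-15SA responders 1 UMI is 3.03 CPM, which limits low genes.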
